A study of Mus musculus with 9 samples.

Results

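The enzymes that place and remove N6-methyladenosine (m6A) on RNA were examined in bulk RNA-sequencing of 9 clones of primary cells (MPC) from tumors of WTg mice. The 10 genes were taken by symbol and were all found among the 18049 genes of the table. They comprise 8 genes of the m6A writer complex (Mettl3, Mettl14, Wtap, Virma, Zc3h13, Rbm15, Rbm15b and Cbll1) and the 2 eraser genes Fto and Alkbh5. All 10 also passed the filter on low values, a mean of at least 50 normalized counts, as did 12301 genes in all.

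The WTg mouse carries, beside its endogenous gene, the coding sequence of Mettl3 behind the CAG promoter, which is active in most cell types. It was crossed to the EL1 mouse (FVB/N), in which the elastase I promoter directs SV40 large T antigen and luciferase to pancreatic acinar cells, and all 9 clones are labelled with both (EL1-Luc/EL1-Tag x CAG-Mettl3). Each line is 1 colony, taken with a cloning cylinder after the attached tumor cells had been passaged, and no cells without the Mettl3 transgene were analysed here. The labels give no treatment, although a protocol field names NMS-P937 at 80 nM for 24 h, and they give no age. The column headers split the clones by a prefix whose meaning is not stated: 1 library starts with MET, 4 with Whe10 and 4 with Whe3. The prefixes are used here as names of libraries and not as conditions.

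m6A is the most common internal modification of messenger RNA, and it affects the splicing, translation and decay of the transcripts that carry it. METTL3 is the catalytic subunit that transfers the methyl group from S-adenosylmethionine, METTL14 is its RNA-binding partner, and WTAP holds the pair in nuclear speckles. VIRMA, ZC3H13, RBM15, RBM15B and CBLL1 (HAKAI) are accessory subunits, of which the RBM15 proteins help direct the complex to its sites. FTO and ALKBH5 are dioxygenases of the AlkB family that take the methyl group off again. In pancreatic adenocarcinoma, METTL3 has been studied for its part in resistance to therapy.

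The libraries held 12198034 (MET) to 20453888 counted reads, and 1 read was worth 1.26 to 2.19 normalized counts (read counts scaled by 1 factor per library). A level of 3 reads, set here as a floor, was 3.79 to 6.56 normalized counts, whereas the members were covered by 140 to 2129 reads per library. Intervals from reads cover counting error only. MET stood apart from the other 8 libraries: it lay outside their range for 40.8% of the genes tested. Xist was at 29664 to 32912 normalized counts in the Whe10 libraries and at most 8.39 in the others, and Ddx3y was at 0 in Whe10 and at 2376 to 2720 in the others. Between Whe10 and the other libraries, sex, prefix and mouse of origin cannot be told apart. MET and Whe3 shared this pattern, and between them prefix and mouse of origin cannot be told apart. The labels call the cells fibroblasts, and the 12 fibroblast markers summed to 349734 to 934353 normalized counts, with Lum and Fap under the filter. The 10 macrophage markers were all above the filter and summed to 512508 to 818092. Large parts of these sums came from Fn1 (201242 to 432514) and Lyz2 (287615 to 577311). Both sums were thus high in every library, though not every fibroblast marker was: Dcn fell to 217 and Pdgfra to 332. In bulk samples, fewer cells of a type and less RNA per cell cannot be told apart.

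Mettl3 was the member that differed most between clones, and the size of that difference came from 1 library. In MET, Mettl3 was at 2184 normalized counts (998 reads, exact Poisson 95% interval 2051 to 2324). In the Whe10 libraries it was at 515, 546, 611 and 621, and in the Whe3 libraries at 468, 480, 490 and 502. MET was therefore 4.13-fold above the mean of the other 8 libraries, 529 ± 58.5 (SD, n = 8), and did not overlap with them. A single library has no replicate check, so no test was made of this difference. Of the genes tested, 2.43% were at least 2-fold higher in MET, which among the members was true of Mettl3 alone, and 0.366% of genes were raised as much as Mettl3 or more. Without MET, the highest Mettl3 value was 1.33-fold above the lowest, still the widest span of the members (at most 1.27-fold, for Virma, in the other 9).

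**Figure D1:**
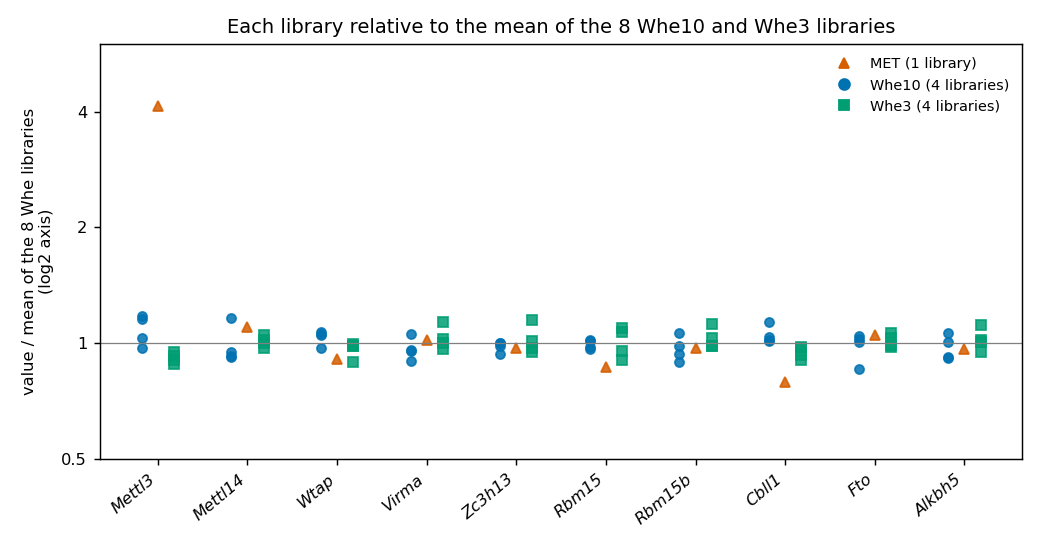
Value of each member in each library, divided by the member's mean over the 8 Whe10 and Whe3 libraries (log2 axis), with triangles for MET, circles for Whe10 and squares for Whe3. Mettl3 in MET sits at 4.13, whereas MET values of the other 9 members lie between 0.79 and 1.10.

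The table holds 1 value for Mettl3 and does not separate transcripts of the transgene from those of the endogenous gene, which lies on chromosome 14 (chr14:52294841-52308741, GRCm38.p6). The 4 nearest protein-coding genes listed on each side were read off as well, a choice made after their values had been seen. Toward higher coordinates only Sall2 (chr14:52311177-52328670) lay close, and the next listed gene, Dad1, began at chr14:54235485. Tox4, which overlaps the end of Mettl3 by 669 bases, was at 1746 normalized counts in MET and at 1774 to 2037 in the other 8 libraries. Rab2b (551 against 457 to 602), Chd8 (2972 against 2729 to 3178), Sall2 (208 against 116 to 268), Abhd4 (2202 against 1921 to 2838) and Oxa1l (864 against 837 to 1058) were within the range of the other libraries. Supt16, a histone chaperone subunit, and Dad1 were highest in MET, at 1.18 and 1.08 times the mean of the others. The ratios of the 8 neighbours were 0.89 (Oxa1l) to 1.18 (Supt16). Whether the chromosomal region was altered in MET was not tested.

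**Figure D2:**
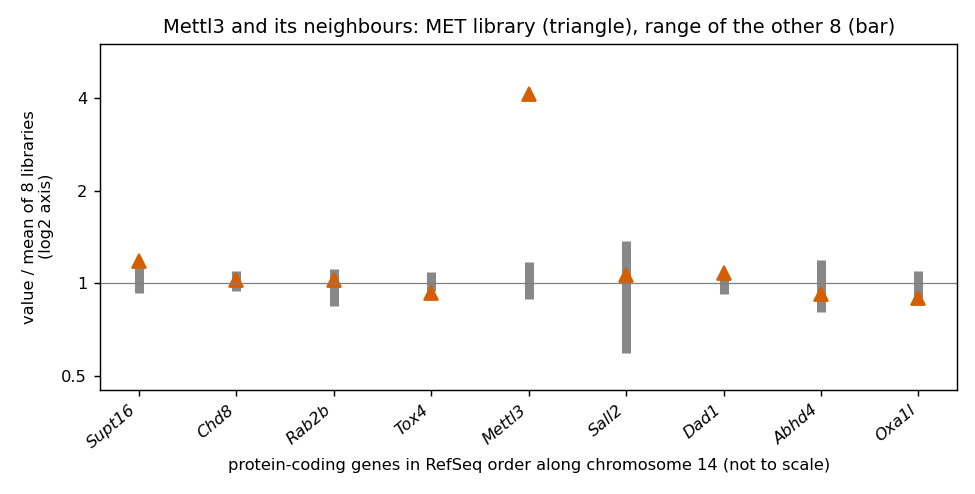
Mettl3 and the 4 nearest listed protein-coding genes on each side, in order along chromosome 14 (distances not to scale). Triangles show MET divided by the mean of the other 8 libraries and bars the range of those 8 (log2 axis); neighbours lie between 0.89 and 1.18 and Mettl3 at 4.13.

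The bases before an annotated start of transcription (RefSeq, GRCm38.p6) are shown for the endogenous Mettl3 gene, which is read together with the transgene under CAG, and for Cbll1, the other member whose Whe10 and Whe3 values did not overlap. Both genes lie on the minus strand, and the 250 bases run 5′ to 3′ toward the start, chr14:52305125-52305374 for Mettl3 and chr12:31499617-31499866 for Cbll1. These starts lie 3617 and 1060 bases inside the annotated gene spans, so both genes are annotated as beginning farther upstream, in bases not shown. Capitals mark the GC box.
Mettl3: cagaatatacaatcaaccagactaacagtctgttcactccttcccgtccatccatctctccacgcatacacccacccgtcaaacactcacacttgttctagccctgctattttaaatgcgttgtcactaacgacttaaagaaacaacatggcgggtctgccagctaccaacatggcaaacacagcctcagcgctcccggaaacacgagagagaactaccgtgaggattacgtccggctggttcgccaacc
Cbll1: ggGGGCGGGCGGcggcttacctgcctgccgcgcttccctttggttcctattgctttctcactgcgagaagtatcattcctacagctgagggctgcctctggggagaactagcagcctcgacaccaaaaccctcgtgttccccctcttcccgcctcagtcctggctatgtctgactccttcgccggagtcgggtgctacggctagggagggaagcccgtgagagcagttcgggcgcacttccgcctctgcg
The GC box (GGGCGG), the CCAAT box (CCAAT), the TATA box (TATAAA) and an ETS core (CCGGAAG) were searched on both strands. The Cbll1 window held 2 overlapping copies of the GC box and the Mettl3 window none of these motifs. The promoter table held 11 entries for 8 of the members and none for Mettl14 and Virma. Of the 11 entries, 8 held the GC box (5 genes), 4 the CCAAT box (3 genes), 2 the ETS core (1 gene, Zc3h13) and 0 the TATA box. No test was made of these shares. Of all 32851 windows of this length, 32.7% held the GC box, 33.8% the CCAAT box, 6.91% the ETS core and 12.4% the TATA box. These matches are descriptions of sequence, not of binding.

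Mettl14 (chr3:123368295-123385990), the binding partner of Mettl3, did not show the same difference. It was at 556 normalized counts in MET, in the range of the other 8 libraries (463 to 586, median 496), and its highest value was in Whe10_7A. MET was 1.10 times the mean of the others, with a counting interval of 0.973 to 1.25. The ratio of Mettl3 to Mettl14 within a library, which does not depend on scaling, was 3.93 in MET (exact 95% interval 3.42 to 4.53). In the other 8 it was 0.883 to 1.34, with a mean of 1.06 ± 0.143 (SD, n = 8). The level of this ratio also holds the lengths of both transcripts, which were not at hand, so it is no count of molecules, and for the same reason levels of different members are not ranked here.

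**Figure D3:**
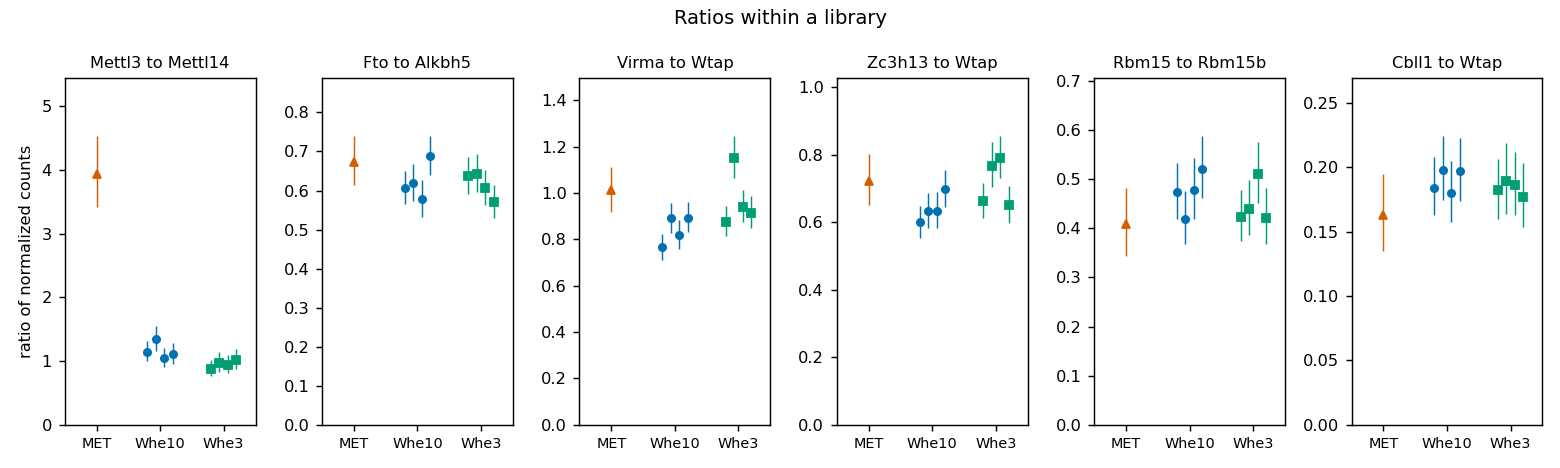
Ratios of normalized counts of member pairs in each library by prefix, with exact 95% counting intervals. Mettl3 to Mettl14 stands at 3.93 in MET against 0.883 to 1.34 in the other libraries, and in the other 5 panels the interval of MET overlaps that of at least 1 other library, though for Virma to Wtap and Zc3h13 to Wtap not those of every Whe10 library.

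The remaining subunits of the writer complex stayed within narrow limits. Wtap (chr17:12966799-12992543) ranged from 1845 to 2212 normalized counts with a median of 2035, and MET was at 1882. Virma (chr4:11485958-11551143), the large scaffold subunit, ranged from 1672 to 2123 with a median of 1862 and was at 1904 in MET. In MET both lay in the range of the other 8 libraries. Zc3h13 (chr14:75284306-75344433) ranged from 1308 to 1606 with a median of 1379, and its highest value, in Whe3_5A, stood apart from the others, of which the next was 1416. Whe3_5A was also the library with the highest sum of the 6 acinar markers (2415 normalized counts against 144 to 396 in the others), and the part of this in the Zc3h13 value was not tested. Rbm15b (chr9:106880928-106887075) ranged from 989 to 1239 with a median of 1090.

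Rbm15 and Cbll1 were lowest in MET. Rbm15 (chr3:107305511-107334460) was at 440 there and at 458 to 555 in the other libraries, 0.867 times their mean (counting interval 0.751 to 0.995). Cbll1 (chr12:31484829-31500676), which codes for an E3 ubiquitin ligase of the complex, was at 306 in MET and at 350 to 439 in the others, 0.793 times their mean (0.667 to 0.936). With Mettl3, these are the 3 of 10 members for which MET fell outside the range of the other libraries, against 40.8% of all genes tested, so the share is no result about the members.

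The erasers, which belong to the AlkB family, varied as little, with coefficients of variation of 6.25% (Fto) and 6.70% (Alkbh5) over the 9 clones. Fto (chr8:91313367-91668433) ranged from 1349 to 1678 normalized counts with a median of 1614, and was at 1661 in MET. Its lowest value was in Whe10_7A and stood apart from the next, 1546. Whe10_7A also had the lowest fibroblast marker sum, 349734 against 441104 to 934353 in the others, and the part of this in the Fto value was not tested. Alkbh5 (chr11:60537683-60558512) ranged from 2334 to 2853 with a median of 2576, and was at 2466 in MET. The ratio of Fto to Alkbh5 was 0.571 to 0.688 over the 9 libraries, and MET, at 0.673, was in the range of the other 8.

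**Figure D4:**
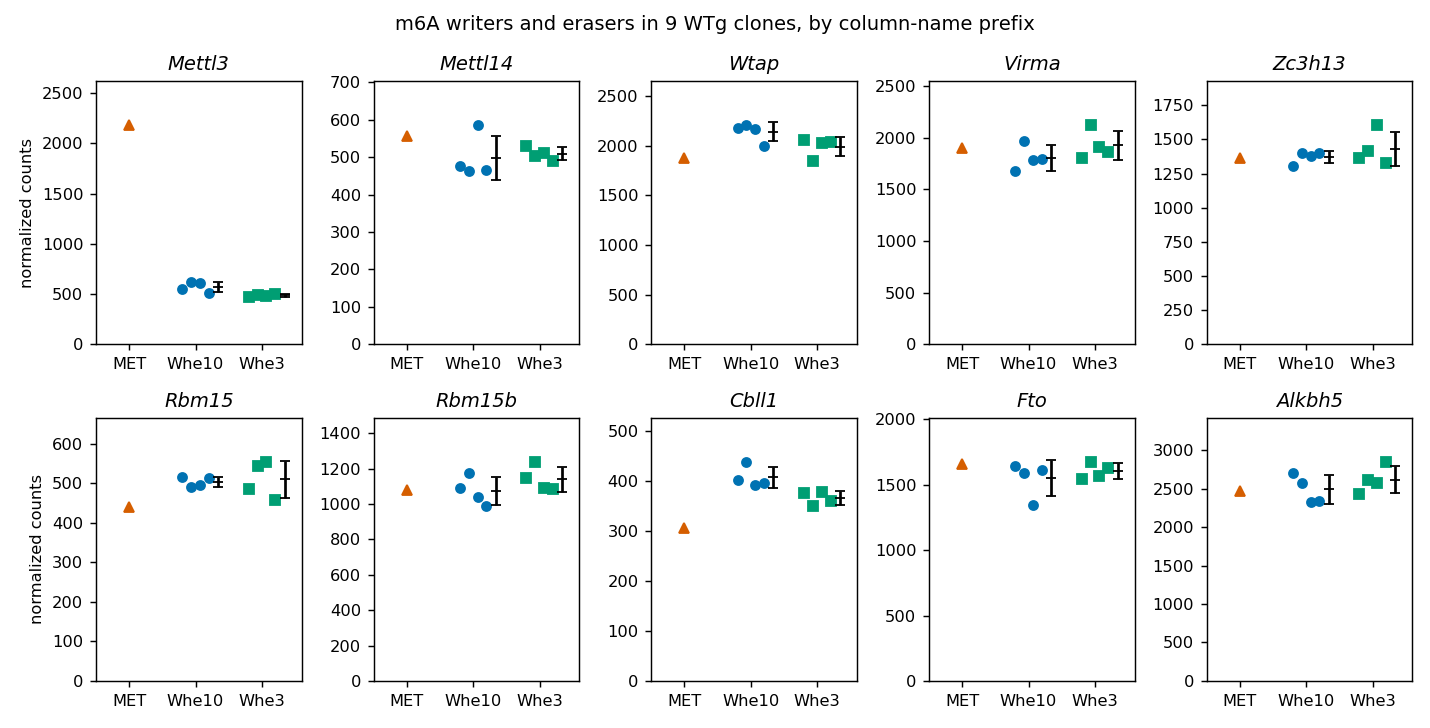
Normalized counts of the 10 members in each library (linear axes from 0), by prefix, with MET as triangles, Whe10 as circles and Whe3 as squares. Black bars give the mean and SD of the 4 Whe10 and the 4 Whe3 libraries; Mettl3 is the panel in which 1 library, MET at 2184, lies far from the rest.

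Set against all genes, 9 members varied little. Their coefficients of variation over the 9 clones were 6.21% (Zc3h13) to 9.82% (Cbll1), whereas that of Mettl3 was 77.8%. The median SD of log2 values was 0.10 for the 10 members and 0.21 for all genes tested. Each of the 9 had a lower SD than most genes: between 6.69% (Zc3h13) and 29.6% (Cbll1) of the genes tested varied less. The SD was 1.38 (Rbm15) to 2.75 (Alkbh5) times what counting of reads alone would give, and 10.6 times for Mettl3. The SD and this ratio to counting both depend on the number of reads of a gene, and the genes tested were not matched to the members by level. Without MET, Mettl3 still had the highest SD of log2 values, 0.155 against 0.085 (Wtap) to 0.113 (Mettl14), and 39.0% of the genes tested varied less than Mettl3 over those 8 libraries, against at most 21.9% (Mettl14) for the others.

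The ratios of the subunits to one another were also taken within each library. Virma to Wtap was 0.766 to 1.15, with the highest value in Whe3_12A. Zc3h13 to Wtap was 0.599 to 0.791 and Rbm15 to Rbm15b 0.408 to 0.520. Cbll1 to Wtap was 0.163 in MET and 0.177 to 0.198 in the other 8 libraries, with a coefficient of variation of 4.10% over those 8. MET was the lowest library for this last ratio, and its counting interval (0.135 to 0.195) overlapped those of the others.

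Whether partners and erasers varied with Mettl3 was tested by the slope of their log2 values on log2 Mettl3 over the 9 clones (limma fitted to all genes, Benjamini-Hochberg adjustment over 12300 genes). A slope of 1 means that a gene doubles when Mettl3 doubles. Of the genes tested, 1.93% were called, 36 with a positive and 202 with a negative slope, a balance that was 22 to 24 with limma's voom on recovered reads. None of the 9 members was called, none had an unadjusted p under 0.05, and voom gave 0 for both as well. With upper quartile scaling, Rbm15 and Cbll1 had an unadjusted limma p under 0.05 (0.0244 and 0.0309), though neither was called. Slopes of these genes were then -0.147 and -0.179. Without that scaling, the median slope of the 9 members was -0.02, beside 0.01 for all genes tested. Mettl14 had the highest slope, 0.07 ± 0.06 (SE) with a 95% interval of -0.07 to 0.21 and a limma adjusted p of 0.64. Cbll1 had the lowest, -0.13 ± 0.07 (SE) with an interval of -0.29 to 0.02 and a limma adjusted p of 0.42. Every interval of the 9 members thus ended at or below 0.21. These slopes rest on MET: without it none of the genes was called and the member slopes ran from -0.29 to 0.50, with SEs of 0.20 to 0.32. With the prefix as a term they ran from -0.42 to 0.48 with SEs of 0.37 to 0.56, and again no gene was called. Intervals then reached up to 1.09 without MET (Cbll1) and up to 1.72 with the prefix as a term (Mettl14), so some held a slope of 1.

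**Figure D5:**
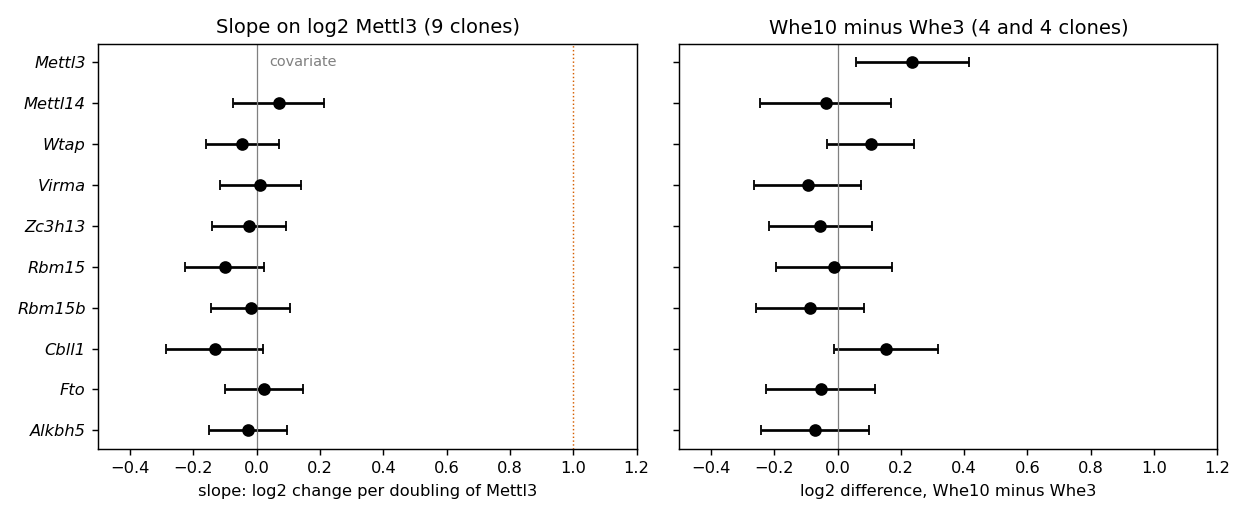
Left, slope of each member on log2 Mettl3 over 9 clones; right, log2 difference of Whe10 minus Whe3 (4 clones each). Points are limma estimates and bars 95% intervals. The dotted line at 1 marks a gene that doubles with Mettl3, and every slope interval shown ends at or below 0.21. The slopes rest on MET, and without it the interval of Cbll1 was -0.10 to 1.09.

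The same fit on log2 Mettl14 called no gene (0%) of 12300. At an unadjusted p under 0.05, 294 genes passed, and 257 with voom, which called 0 as well. Mettl14 varied little between clones (SD of log2 values 0.12, n = 9), and the SEs of the member slopes, 0.30 to 1.82, were wide. On simulated data this fit did not recover the changed genes, so that a lack of calls says nothing about the genes. None of the 9 members had an unadjusted p under 0.05. Fto did without MET (limma p 0.0339) and with the prefix as a term (0.0149), and Cbll1 did without Whe10_7A (0.0233). None of these was called after adjustment. The 2 genes with the smallest p were Adamtsl4 (slope -8.37 ± 1.26 SE) and Ecm1 (-5.75 ± 1.0 SE), both extracellular matrix proteins, each with a limma adjusted p of 0.999.

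Between the Whe10 and Whe3 libraries, Mettl3 and Cbll1 were the members whose values did not overlap, both higher in Whe10. Mettl3 averaged 573 ± 51.1 normalized counts in Whe10 and 485 ± 14.5 in Whe3 (SD, n = 4 each), a log2 difference of 0.24 (95% interval 0.06 to 0.41). Cbll1 was at 392, 395, 402 and 439 in Whe10 and at 350, 360, 375 and 378 in Whe3, a log2 difference of 0.15 (interval -0.01 to 0.32). Over all genes tested, 11.1% did not overlap between the prefixes, so that 2 of 10 is near the background. By limma with Benjamini-Hochberg adjustment, 35 genes were called (0.285%), 13 higher and 22 lower in Whe10 (166 higher and 100 lower without Whe3_5A), with the Y-linked Ddx3y and Eif2s3y at the smallest p. None of the 10 members was called, with adjusted p of 0.16 for Mettl3 and 0.26 for Cbll1. Mettl3 alone had an unadjusted p under 0.05 (0.0153), with voom as well, which also called 0 members. For the other 8 members the log2 differences lay between -0.09 (Virma) and 0.11 (Wtap), with limma adjusted p of 0.33 to 0.94.

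Neighbouring pathways were read from 4 lists of genes. All 6 other RNA methyltransferase genes (Mettl16, Mettl5, Trmt112, Zcchc4, Pcif1 and Mettl4) were measured and tested. None was called in the fit on Mettl3 or between prefixes. Of all genes tested, 1.93% and 0.285% were called there, so this lack of calls is no result about the list. The fit on Mettl14 called no gene and is left out here. The median slope of the 6 genes on log2 Mettl3 was -0.01. Pcif1, the cap-specific adenosine methyltransferase, had the lowest MET ratio of this list, at 759 normalized counts in MET against 999 ± 144 (SD, n = 8) in the others. Of the 7 other AlkB family genes (Alkbh1 to Alkbh4 and Alkbh6 to Alkbh8) none was called in these fits either, which is again near the background. Their median slope on log2 Mettl3 was 0.01. Alkbh1 was at 523 normalized counts in MET against 387 ± 64.2 (SD, n = 8), and Alkbh4 at 151 against 201 ± 51.3.

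The cycle of S-adenosylmethionine, the methyl donor of METTL3, was covered by 5 measured genes of 6. None was called in the association with Mettl3, against 1.93% of all genes tested, and their median slope on log2 Mettl3 was 0.02. In MET, Ahcy, which clears the product S-adenosylhomocysteine, was highest, at 1759 normalized counts against 1036 ± 228 (SD, n = 8), and Mat2a, which makes the methyl donor, was highest as well, at 5158 against 3971 ± 436. Ahcyl2, a relative of Ahcy, was lowest there, at 1000 against 1843 ± 381. Their limma adjusted p in the association with Mettl3 were 0.32, 0.40 and 0.34. Of all genes tested, 40.8% lay outside the range of the other libraries in MET, so such positions are not particular to this list. Ahcyl1 was called between the prefixes, at 3898 ± 181 normalized counts in Whe10 and 5768 ± 574 in Whe3 (SD, n = 4 each), a log2 difference of -0.56 ± 0.08 (SE) with a limma adjusted p of 0.048. This call held in 6 of 14 alternatives, with adjusted p between 0.028 and 0.154.

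The 8 proliferation genes (such as Mki67, Top2a and Plk1) summed to 15268 normalized counts in MET and to 6397 to 21625 in the other libraries. None of them was called in the fit on Mettl3 (1.93% of all genes tested) or between prefixes (0.285%), so this is no result about the list. Their median slope on log2 Mettl3 was 0.18, and the lowest limma adjusted p in that fit was 0.67 (Aurkb). The fibroblast marker sum of MET (758158) and its macrophage marker sum (629287) were in the range of the other 8 libraries. Of the 12 fibroblast markers, however, 6 were highest in MET (Col3a1, Pdgfra, Pdgfrb, Thy1, Acta2 and Fap), against 21.4% of all genes tested. Fap and Lum, both among the 12, were under the filter that the genes tested had passed. Over the fibroblast markers that passed it, the median ratio of MET to the mean of the others was 1.51. The part of these markers in the Mettl3 value of MET was not tested. The acinar marker sum of MET was the lowest, at 144 normalized counts against 145 to 2415, and came from Cela1 alone. Prss2, Cela2a, Ctrb1, Cpa1 and Amy2a5 were at 0 in MET, which did not set this library apart. The lowest value among the other 8 libraries was also 0 for each of these genes. Their medians over all libraries were 0, except for Prss2 at 1.29, and their highest values were in Whe3_5A. The 5 epithelial markers summed to 41.6 in MET and 20.3 to 188 in the others, with Epcam at 0 in every library, and the 4 endothelial markers to 212 in MET and 156 to 429 in the others.

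Likeness to a member was described by Pearson's r of log2 values over the 9 clones, among 12300 other genes. The genes most like Mettl3 were Gm10076 (r = 0.978), Chtf8, a subunit of an alternative clamp loader for DNA replication (r = 0.977), and Sec22a, a vesicle trafficking protein (r = 0.965). All 3 were above the range of the other 8 libraries in MET, at 6.38, 1.17 and 1.38 times their mean. These r rest on 1 library: without MET the genes at the top were Gabpa, Etnk1 and Taf11. Among the other members, Mettl14 came first, at rank 2703 (r = 0.419), and Rbm15 last, at rank 11284 (r = -0.653). Without MET this order turned, with Cbll1 first, at rank 420 (r = 0.759), Wtap next, at rank 610 (r = 0.727), and Mettl14 at rank 6461 (r = 0.036). In the fit on Mettl3, the smallest p were those of Gm20570, at 0 in MET and 127 to 350 normalized counts in the others, and Gm5525, at 2.19 against 79.6 to 148. Both are gene models known by number, and neither was called without MET.

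For Mettl14 the genes most alike were Chchd4, a mitochondrial import factor (r = 0.935), Zfp85 (r = 0.909) and Necap1, which acts in endocytosis (r = 0.907). Mettl3 was at rank 1399 in this order (r = 0.419) and Fto at rank 12062 (r = -0.612), the lowest of the members. Over the 8 libraries without MET, Mettl3 had an r of 0.036 with Mettl14, and Fto an r of -0.832. The likeness of Fto also depended on Whe10_7A, which had the highest Mettl14 value and the lowest Fto value. Without Whe10_7A, the slope of Fto on log2 Mettl14 was -0.00413 ± 0.32 (SE), against -0.502 ± 0.302 over all clones.

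Some reads may be shared with overlapping genes, since counting by strand is not stated. Rbm15 overlaps Slc16a4 over 6605 bases, but Slc16a4 was at 4.27 to 50.2 normalized counts. Rbm15b overlaps Dcaf1 over 65 bases, Cbll1 overlaps the non-coding Gm40362 over 1057 bases, and Fto holds the non-coding 4831440D22Rik over 17152 bases. For the last 2 the table gave no value.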

How the data were processed

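Bulk RNA-sequencing of 9 MPC clones, all of the group WTg, was analysed. The authors deposited 1 table of log2 values of scaled read counts, with an offset of 4 added before the log2. The submitters' processing notes name FastQC 0.11.9, STAR 2.7.10, RSEM 1.3.3 and GRCm38, and the libraries were stranded; the scaling software and the strand setting of the counting are not given in the sources used here. The log2 was undone and the offset subtracted, giving normalized counts. In each library these were whole multiples of 1 step (100% of nonzero values under 1000 reads, tolerance 0.1 reads), so reads were recovered by division, 12198034 to 20453888 per library. Scaling moves a member in every library by the same factor as all other genes, so ratios within a library do not depend on it. The table also holds 6 columns of samples that are not in this series, which were not used.

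The 10 members and the lists of other genes were chosen with earlier results of these data known. Fits used limma 3.58.1 in R 4.3.3 (lmFit, then eBayes allowing a trend of the variance). Values were log2(normalized counts + 1), and genes averaging under 50 normalized counts were left out, with Benjamini-Hochberg adjustment over all genes tested and a threshold of 0.05. A fold change on this scale understates that of low genes. The fits were made over the 9 clones: Whe10 against Whe3 (prefixes as levels, MET kept as a level of its own), the slope on log2 Mettl3 and the slope on log2 Mettl14. The single library MET was compared by its ratio to the mean of the other 8, with 2-fold as the limit and no test. The labels do not say whether clones come from separate mice, so p-values measure only the spread between these clones, which may share an animal. The plan named a test on read counts and levels per transcript length. The first was replaced by voom because the deposited unit is log2, and the second was not run because no transcript lengths were at hand. The fits were tested on simulated data. With log2 differences of 0.5 between prefixes, limma recovered 26.5% of changed genes, and 72.5% with differences of 1. For slopes of 0.5 and 1 on log2 Mettl3 it recovered 55.5% and 90%, and on log2 Mettl14 0% for both. The simulated libraries held no differences between libraries or prefixes beyond the planted changes, whereas MET stood apart in the real data. The recovery on log2 Mettl3 therefore cannot be carried over to the real fit. Member differences between prefixes were all smaller than 0.5, so a lack of calls there says little. Named genes are the members, the list genes that passed a test or lie at the ends of the range of MET ratios, the 3 genes most like Mettl3 and Mettl14, and the top 2 genes of each fit by p. The neighbours of Mettl3 were added after values were seen. Coordinates, promoter windows and overlaps are from RefSeq for GRCm38.p6, and all 10 members matched there by symbol. Python 3.11.15 with pandas 2.3.3, numpy 2.4.6, scipy 1.17.1 and matplotlib 3.10.9 was used for the rest.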

Additional observations from a re-analysis of the deposited data

Results flagged for a closer look

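A library was looked at again where its gap to the nearest other library, divided by the range of all 9, was above Dixon's critical value (95%) for 9 samples. Chance gives this in about 1 of 20 groups, and 9.55% of all genes tested met it. It was met by 3 of 10 members, 1 of 6 ratios and 3 of 26 genes of the pathway lists. Mettl3 was high in MET with a gap of 0.911 of its range (2184 normalized counts, the next 621), and with it the ratio of Mettl3 to Mettl14, with a gap of 0.849 (3.93, the next 1.34). Zc3h13 was high in Whe3_5A with a gap of 0.639 (1606 normalized counts, the next 1416). Fto was low in Whe10_7A with a gap of 0.599 (1349 normalized counts, the next 1546). Plk1, Ccna2 and Bub1, which act in mitosis, were high in Whe3_12A with gaps of 0.563, 0.536 and 0.501. Their values there were 1228, 2107 and 770 normalized counts. Whe3_12A also had the highest sums of the proliferation genes (21625), a list that holds these 3 genes, and of the fibroblast markers (934353).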

How the results depend on the processing

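Of 275 values of members in the fits on Mettl3 and between prefixes under an alternative, 0 passed the threshold (lowest adjusted p 0.15) and 16 had the other sign. Of 56 levels, spreads, MET ratios and ratios within a library under an alternative, 0 moved beyond their error or, for spreads, by over 1.5 times. The MET ratio of Mettl3 was 3.92 with upper quartile scaling and 3.97 with scaling to total reads. For Virma and Fto the slope on Mettl3 turned to -0.0286 and -0.0147 with upper quartile scaling. With the prefix as a term the slopes of Wtap, Rbm15b, Cbll1, Fto and Alkbh5 turned to 0.31, 0.47, 0.19, -0.42 and 0.25. Leaving out 1 library at a time, slopes were -0.0611 to 0.401 for Wtap, -0.106 to 0.0298 for Virma, -0.148 to 0.496 for Cbll1 and -0.289 to 0.0327 for Fto, and the sign turned without MET. Differences between prefixes were then -0.0893 to 0.0031 for Zc3h13, -0.0624 to 0.0303 for Rbm15 and -0.083 to 0.0126 for Fto. The 238 genes called with Mettl3 became 419 without the filter (more genes tested), 46 with voom, 0 with the prefix as a term (276 at an unadjusted p under 0.05), and 0 (without MET, 1468 unadjusted) to 340 (without Whe3_12A) leaving out 1 library. The 35 called between prefixes became 19 without the filter, 22 with voom, and 9 (without Whe3_7A) to 266 (without Whe3_5A) leaving out 1 library; each of the 8 Whe libraries moved this count by over 1.5 times. The fit on Mettl14 called 0 genes under every alternative run, but it did not recover changed genes on simulated data, so this says nothing about stability. Where no cause is named, the cause was not tested. No paired analysis was possible because the labels put every clone in group WTg. The count test on reads and the levels per length were not run. The limits are the single MET library, 4 clones per prefix and the lack of clones without the transgene.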
